A study of Mus musculus with 6 samples.

Results

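The data described here are the RNA levels of 10 mouse genes that encode secreted metalloproteinases of the extracellular matrix and their helper, taken from RNA sequencing of bone cells of control and dexamethasone-treated mice. The rule that names them uses their family and role and no measured value, although it was set with earlier results of these data known: the ADAMTS proteinases Adamts1, Adamts4, Adamts5, Adamts9 and Adamts12, the procollagen N-proteinases Adamts2 and Adamts14, the procollagen C-proteinases Bmp1 and Tll1, and the C-proteinase enhancer Pcolce. All 10 were found by symbol among the 29616 genes of the table, and all 10 were among the 17442 genes with enough reads to be tested. There were 3 libraries per group, described by the submitters as biological replicates, and all came from C57BL/6 mice. The treated mice received dexamethasone, a synthetic glucocorticoid, each day over 4 weeks from the age of 8 weeks, at a dose of 0.08 µg per g of body weight, and the study's controls were littermates. The labels call the material bone cells, and the study's text describes an Osteocalcin-positive sort from bones without marrow. Whether a library is from 1 mouse or a pool is not stated, so the p-values measure the spread between these libraries.

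ADAMTS proteinases are secreted zinc metalloproteinases that carry thrombospondin motifs. The ones called aggrecanases, ADAMTS4 and ADAMTS5 above all, cleave aggrecan and versican, the large hyaluronan-binding proteoglycans, and are best known for the loss of aggrecan in arthritic cartilage. ADAMTS2 and ADAMTS14 instead remove the amino-terminal propeptide of fibrillar procollagens, while the tolloid proteinases BMP1 and TLL1 remove the carboxy-terminal propeptide, and PCOLCE, which is not a proteinase, binds that propeptide and speeds its removal. Both cuts precede the assembly of collagen fibrils, the main organic component of bone. TIMP3, a matrix-bound inhibitor, is the principal endogenous inhibitor of ADAMTS4 and ADAMTS5.

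Of the 5 genes of the aggrecanase group, Adamts4, Adamts5 and Adamts9 were called lower with dexamethasone, led by Adamts5 at 6.57-fold lower, whereas both N-proteinase genes gained, Adamts2 by 4.63-fold and Adamts14 by 3.38-fold. Adamts12 fell 1.48-fold and Adamts1 was at -0.09 on the log2 scale with overlapping groups. The C-proteinase genes went opposite ways, with Bmp1 rising 1.29-fold and Tll1 falling 2.93-fold, and the enhancer Pcolce fell 1.65-fold. A gene was called differentially expressed when its limma adjusted p was under 0.05 and its log2 fold change was at least 1 in either direction, the cut-offs of the study's methods. By this rule 6 of the 10 members were called, 2 higher and 4 lower, where 22.3% of all tested genes were called, 11.7% higher and 10.6% lower. With the adjusted p alone all 10 members passed, 3 upward and 7 downward, beside 72.5% of all genes, 37.2% upward and 35.2% downward. The values of the control and dexamethasone libraries did not overlap for 9 of the 10, with dexamethasone above for 3 and below for 6, beside 74.7% of all genes, 38.4% above and 36.4% below. Most genes of the table pass these last rules, so the counts say little about the members. Their median absolute log2 fold change was 1.38, beside 0.45 over all genes. The signed median was -0.64, beside 0.00071.

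**Figure D1:**
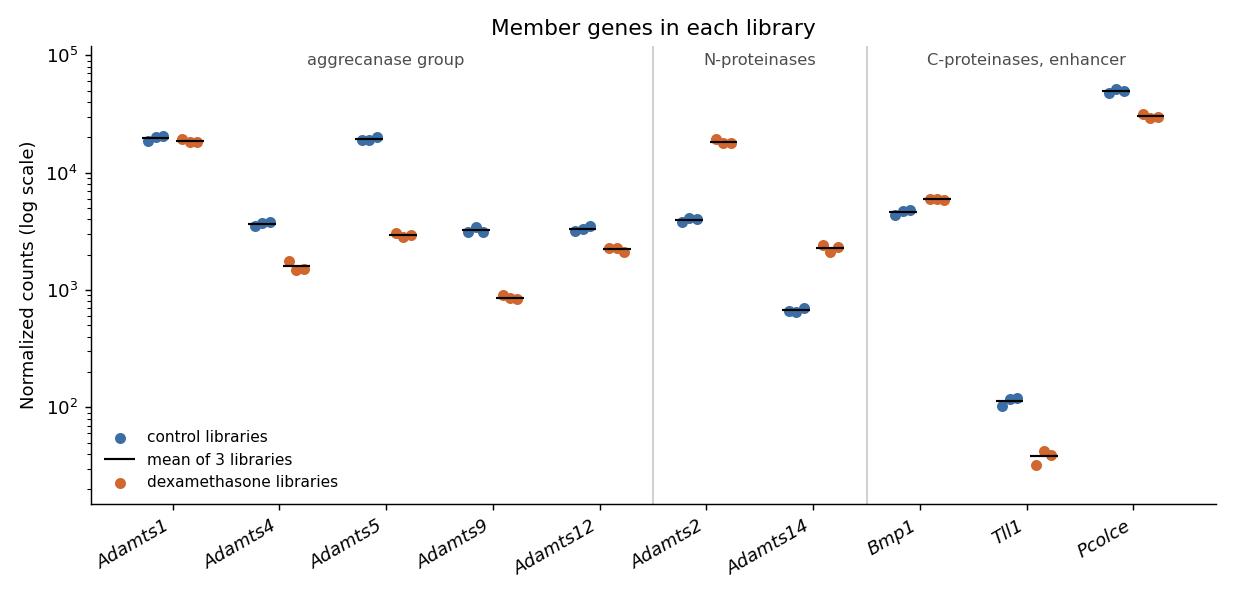
Normalized counts (log axis) of the 10 members in each of the 3 control (blue) and 3 dexamethasone (orange) libraries, with black lines at the group means. Adamts5 dropped from a mean of 19306 to 2939 and Adamts2 climbed from 3971 to 18398, whereas the Adamts1 libraries of both groups lay between 18078 and 20339.

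Among the aggrecanases, Adamts5, the main aggrecanase of mouse cartilage, changed most. Its normalized counts, which are reads divided by a size factor per library, were 19069, 18773 and 20076 for the control libraries, in the order of replicates 1, 2 and 3 used throughout, and 3060.1, 2838 and 2919 for the dexamethasone libraries. Every dexamethasone library lay far below every control library. Its log2 fold change was -2.72 (limma adjusted p = 2.44e-26, standard error 0.0382), and 3.62% of all tested genes had a larger change in either direction. Adamts4, the other classical aggrecanase, had 3519.8, 3753 and 3762 normalized counts in the controls and 1777, 1491 and 1516 with dexamethasone. It was 2.31-fold lower (95% interval 2.14 to 2.50, limma adjusted p = 3.17e-16), a smaller fall than that of Adamts5 but well clear of the replicate spread.

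Adamts9, which encodes a versican-cleaving proteinase, had 3103, 3469 and 3139 normalized counts in the control libraries and 899, 856 and 831 in the dexamethasone libraries. It was 3.75-fold lower (95% interval 3.49 to 4.03, limma adjusted p = 7.76e-21). Exons of genes on the opposite strand cover 12.0% of its exon bases in the GENCODE M21 annotation, and whether the reads were counted by strand is not given in the sources used here. Adamts12, whose protein cleaves the cartilage glycoprotein COMP, had 3193, 3291 and 3482 normalized counts in the controls and 2295, 2293 and 2122 with dexamethasone. This fall of 1.48-fold (limma adjusted p = 2.7e-11) was larger than the replicate spread but under the fold cut-off.

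Adamts1, whose protein cleaves versican and aggrecan, went with neither group. It had 18679, 20105 and 20339 normalized counts in the controls and 19329, 18190 and 18078 with dexamethasone, so that the groups overlapped. Its log2 fold change was -0.09 (95% interval -0.17 to -0.01), with a limma adjusted p of 0.0463 that missed 0.05 when any of 4 of the 6 libraries was left out, reaching 0.231 without control replicate 3. After quantile normalization the log2 fold change was -0.29, with a limma adjusted p of 1.42e-08. In the RefSeq annotation of GRCm38.p6, Adamts1 and Adamts5 are neighbours on chromosome 16 with 0 protein-coding genes between them. Control libraries held nearly equal normalized counts of both, although per kilobase of exon the controls averaged 3717 for Adamts1 and 1789 for Adamts5. Only Adamts5 lost most of its counts.

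Set beside each other per kilobase of exon, the aggrecanase group changed its make-up. Exon length was taken from GENCODE M21 as the union of all exons of a gene. Adamts1 made up 54.03%, 55.4% and 54.8% of the summed level per kilobase of the 5 genes in the controls, and 79.8%, 80.3% and 80.3% with dexamethasone. The share of Adamts5 was 27.1%, 25.4% and 26.6% in the controls and 6.21%, 6.16% and 6.37% with dexamethasone. Adamts12 held 4.40% to 4.55% in the controls and 4.58% to 4.92% with dexamethasone. The summed level of the 5 genes fell from 6790.1 ± 247 to 4361 ± 180 normalized counts per kilobase (SD, n = 3), which is 1.56-fold. For each of these shares and for the sum the groups did not overlap, and the exact two-sided permutation test gave p = 0.1, the smallest that 3 against 3 libraries allow. Such ratios within a library do not depend on how libraries are scaled to each other, except for the sum. They were chosen after the values had been seen.

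**Figure D2:**
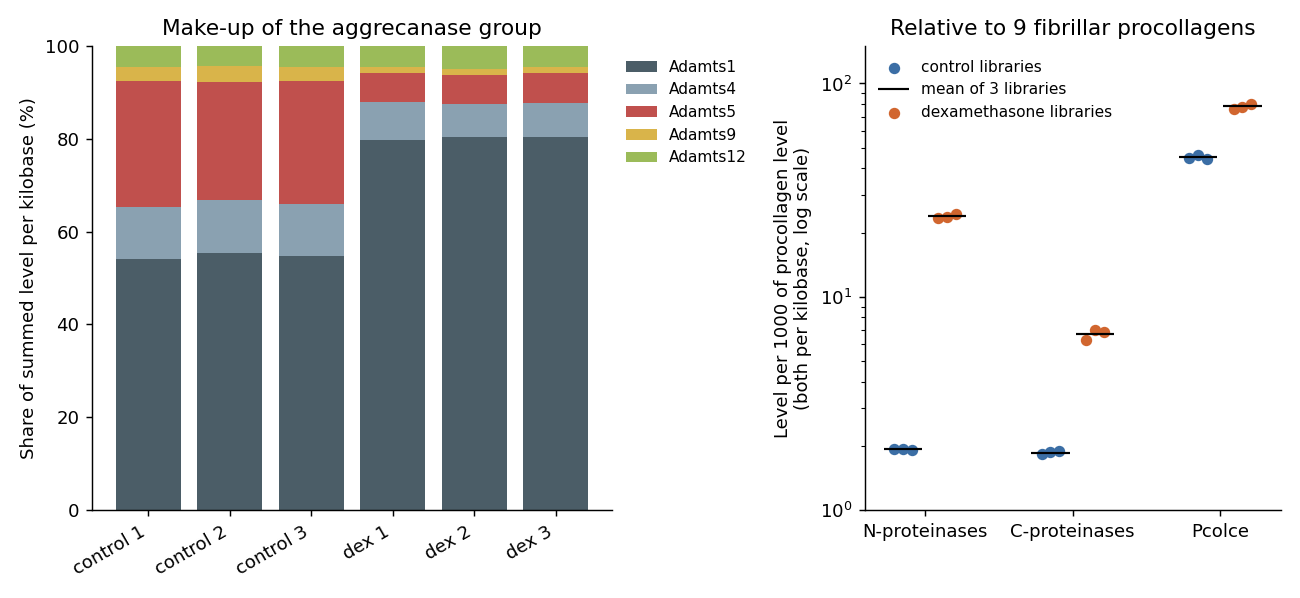
Left, share (%) of each of 5 ADAMTS genes in their summed level per kilobase of exon, by library; right, level per kilobase of the N-proteinases (Adamts2 and Adamts14), the C-proteinases (Bmp1 and Tll1) and Pcolce per 1000 of the summed level of 9 fibrillar procollagen genes (log axis, points are libraries and black lines are means). The Adamts1 share went from 54.7% to 80.2% on average, and the N-proteinases went from 1.93 to 23.8 per 1000.

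Both procollagen N-proteinases rose. Adamts2, the enzyme whose deficiency causes the dermatosparactic type of Ehlers-Danlos syndrome, had 3795, 4104 and 4014 normalized counts in the control libraries and 19405, 17889.6 and 17899 in those given dexamethasone. The log2 fold change came to 2.21 (limma adjusted p = 2.2e-24, standard error 0.0397), and 5.77% of all tested genes had a larger change in either direction. Adamts14, a close relative with the same activity, had 668, 649.7 and 696 normalized counts in the controls and 2420.04, 2099 and 2313 with dexamethasone. It rose 3.38-fold (95% interval 3.12 to 3.67, limma adjusted p = 3.04e-19). Within libraries the level of Adamts2 per kilobase was 3.16, 3.52 and 3.21 times that of Adamts14 in the controls and 4.46, 4.74 and 4.31 times with dexamethasone. Adamts2 thus gained 1.37-fold more than Adamts14, with no overlap between groups and an exact permutation p of 0.1, the smallest possible here. Adamts3, the remaining N-proteinase gene, had 0, 1 and 2 reads in the controls and 1, 0 and 0 reads with dexamethasone. Each is at or under the 3 reads per library that a count of 0 allows, so no difference was detectable at this depth.

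The start sites of the N-proteinase genes are shown because these members moved together. The sequences run from 250 bases before to 50 bases after the start site in RefSeq (GRCm38.p6), 5′ to 3′ along the gene, and that of Adamts9, which fell, is given for comparison. They lie at chr11:50601835-50602134 on the plus strand for Adamts2, at chr10:61273370-61273669 on the minus strand for Adamts14 and at chr6:92943485-92943784 on the minus strand for Adamts9. Capitals mark the GC box GGGCGG read on either strand, the motif of SP1-type zinc finger factors.
Adamts2: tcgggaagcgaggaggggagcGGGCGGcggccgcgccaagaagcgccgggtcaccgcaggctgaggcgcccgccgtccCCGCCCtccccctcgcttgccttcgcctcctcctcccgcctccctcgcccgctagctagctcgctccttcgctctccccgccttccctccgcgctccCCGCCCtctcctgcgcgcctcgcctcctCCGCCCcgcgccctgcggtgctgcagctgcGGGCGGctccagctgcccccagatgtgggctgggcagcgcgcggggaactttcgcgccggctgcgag
Adamts14: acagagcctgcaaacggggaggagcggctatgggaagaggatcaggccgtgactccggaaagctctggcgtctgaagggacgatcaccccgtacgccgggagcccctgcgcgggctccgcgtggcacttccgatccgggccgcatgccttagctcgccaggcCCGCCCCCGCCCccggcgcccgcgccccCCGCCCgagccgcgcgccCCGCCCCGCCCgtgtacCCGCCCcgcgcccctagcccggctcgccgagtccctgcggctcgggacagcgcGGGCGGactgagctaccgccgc
Adamts9: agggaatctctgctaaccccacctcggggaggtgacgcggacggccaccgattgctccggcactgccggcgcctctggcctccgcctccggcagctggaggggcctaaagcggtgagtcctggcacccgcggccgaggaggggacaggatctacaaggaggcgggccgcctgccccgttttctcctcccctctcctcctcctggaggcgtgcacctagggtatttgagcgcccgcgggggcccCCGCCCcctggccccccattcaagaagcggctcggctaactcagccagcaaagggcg

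Adamts2 held 5 GC boxes and Adamts14 held 7, counting overlapping matches, and Adamts9 held 1. At least 5 GC boxes were found in 2.71% and at least 7 in 0.627% of the 32851 mouse promoters of the same length. The sequences were rich in G and C, with 77.3% for Adamts2, 76.7% for Adamts14 and 70% for Adamts9, beside a median of 52.7% over all promoters. Of the other members with a sequence, Adamts1 had 3 GC boxes and the TATA box TATAAA, Pcolce had 1 GC box, Tll1 had 0 GC boxes and 1 CCAAT box, and Adamts12 had none of the motifs searched. Adamts4, Adamts5 and Bmp1 had no promoter sequence in the source used, so nothing here covers them. Matches to the glucocorticoid receptor hexamer AGAACA, on either strand, were found in 0 of the 7 member promoters, as were matches to the full palindromic glucocorticoid response element. The hexamer is in 19% of all promoters and the full element, which contains it, in 0.00913%. The AP-1 motif TGANTCA, present in 7.81% of promoters, and the RUNX motif TGTGGT, in 16.8%, were found in 0 of the 7 as well. The CCAAT box is in 37.4%, the GC box in 35.7% and TATAAA in 13.6% of all promoters. A match or its lack describes these letters in this window only.

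Bmp1, the main procollagen C-proteinase, had 4377, 4681 and 4823 normalized counts in the control libraries and 6010.5, 6006 and 5835 in the dexamethasone libraries. All dexamethasone libraries were above all controls, and the rise of 1.29-fold (limma adjusted p = 1e-08) was under the fold cut-off. After quantile normalization its log2 fold change of 0.36 was 0.18. The gene yields the shorter BMP1 and the longer tolloid protein by splicing, and a count per gene does not separate them. Tll1, a tolloid paralog with the same cut site, was the weakest member, with 112, 120 and 136 reads in the controls and 34, 39 and 34 reads with dexamethasone. It was 2.93-fold lower (95% interval 2.26 to 3.79, limma adjusted p = 3.5e-08), with the widest interval of the 10 members.

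Pcolce was the most abundant member in every library. It had 47660.3, 51505 and 49739 normalized counts in the controls and 31636, 29009 and 29852 with dexamethasone, a fall of 1.65-fold (95% interval 1.55 to 1.74, limma adjusted p = 4.13e-14) that stayed under the fold cut-off. Its paralog Pcolce2, an enhancer of the same step that is not a member, went the other way, from 424 ± 32.7 to 1321 ± 46.3 normalized counts (SD, n = 3), a rise of 3.11-fold (limma adjusted p = 3.1e-17). Per kilobase, the level of Pcolce was 136, 159 and 131 times that of Pcolce2 in the control libraries and 27.8, 27.1 and 27.96 times in the dexamethasone libraries. Pcolce remained far above Pcolce2 in all libraries, and their ratio narrowed 5.13-fold (exact permutation p = 0.1). The ratio of Pcolce to Bmp1 per kilobase also fell, from 24.9 ± 0.857 to 11.8 ± 0.511 (SD, n = 3, exact permutation p = 0.1).

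**Figure D3:**
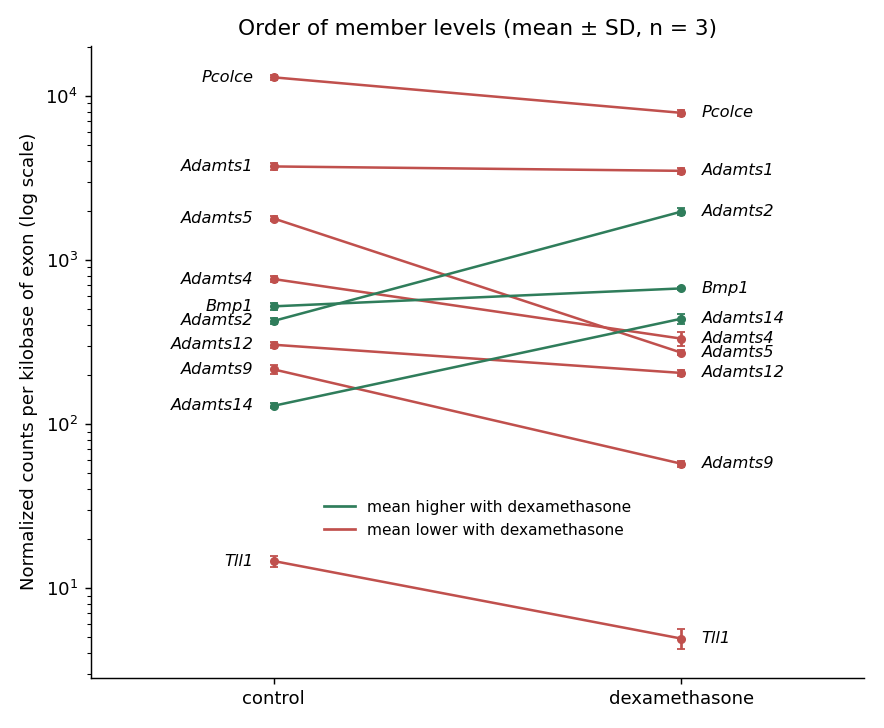
Mean normalized counts per kilobase of exon (log axis) of each member in the control and dexamethasone groups, with SD over 3 libraries, joined by green lines where the mean was higher with dexamethasone and red lines where it was lower. Pcolce, Adamts1 and Tll1 kept their places at the top and bottom, while Adamts2 rose from the 6th to the 3rd place and Adamts5 dropped from the 3rd to the 7th.

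On the per-kilobase scale the order of levels in the controls was Pcolce, Adamts1, Adamts5, Adamts4, Bmp1, Adamts2, Adamts12, Adamts9, Adamts14 and Tll1. With dexamethasone it was Pcolce, Adamts1, Adamts2, Bmp1, Adamts14, Adamts4, Adamts5, Adamts12, Adamts9 and Tll1. Neighbours in either order had library ranges that did not overlap. A gene was divided by the same exon length in every library, so these ranges hold no error from that length. The level of Pcolce was 12983 ± 503 per kilobase in the controls (SD, n = 3) and that of Tll1 was 14.6 ± 1.17. Adamts2 and Adamts5 crossed in this order, Adamts2 going from the 6th to the 3rd place and Adamts5 from the 3rd to the 7th. In the controls the level of Adamts2 was 0.230, 0.253 and 0.231 of that of Adamts5, and with dexamethasone it was 7.33, 7.28 and 7.09 times that level, a change of 30.4-fold in their ratio (exact permutation p = 0.1).

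Most of the collagen substrates of these enzymes fell. All 9 fibrillar procollagen genes of a list were tested, of which 2 were called higher and 5 lower, and 7 fell by the adjusted p alone, with a median log2 fold change of -1.05, beside 0.00071 over all genes. Over all tested genes 11.7% were called higher and 10.6% lower, the shares to set beside the calls of this and the further lists. By the adjusted p alone 35.2% of all genes fell. The members of type I collagen, the fibril of bone, led in abundance. Col1a2 went from 1065431 ± 35647 to 516035 ± 34142 and Col1a1 from 961923 ± 32794 to 261192 ± 17852 normalized counts (SD, n = 3). Their log2 fold changes were -1.05 (limma adjusted p = 1.13e-12) and -1.88 (limma adjusted p = 1.24e-18). The call of Col1a2 rested on the scaling, with -0.995 on the log2 scale after quantile normalization. Col3a1 and Col5a2 fell by 2.16 and 1.72 on the log2 scale. The genes called higher were Col2a1, which forms the cartilage fibril, and Col5a3, with log2 fold changes of 1.90 and 1.12, the latter 0.94 after quantile normalization.

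Relative to the summed level of the listed procollagen genes, therefore, all 3 kinds of processing gene stood higher. This does not hold against each substrate. Col2a1 rose 3.74-fold and Col5a3 2.18-fold, more than Bmp1 at 1.29-fold, while Tll1 and Pcolce fell. Adamts2, at 4.63-fold, rose more than either collagen gene, and Adamts14, at 3.38-fold, rose more than Col5a3 only. For each 1000 of the summed procollagen level per kilobase there were 1.93, 1.94 and 1.91 of the N-proteinases Adamts2 and Adamts14 in the control libraries and 23.4, 23.7 and 24.4 in the dexamethasone libraries, a ratio of 12.4. The C-proteinases Bmp1 and Tll1 together stood at 1.83, 1.86 and 1.90 per 1000 in the controls and 6.26, 6.97 and 6.84 with dexamethasone, a ratio of 3.59. Nearly all of that level was Bmp1, on average 522 per kilobase in the controls and 671 with dexamethasone. Tll1 averaged 14.6 and 4.92, so the C-proteinase ratios say little about it. For Pcolce the values were 44.9, 46.2 and 44.1 per 1000 in the controls and 76.0, 77.5 and 80.6 with dexamethasone, a ratio of 1.73, although its own level fell. N-proteinase and C-proteinase levels were nearly equal in the controls, at a ratio of 1.03 ± 0.0241, and 3.56 ± 0.166 with dexamethasone (SD, n = 3). None of these quantities overlapped between groups, and each had an exact permutation p of 0.1.

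Versican was the most abundant of the listed aggrecanase substrates here, and it rose. Vcan had 4008, 4097 and 4120 normalized counts in the controls and 46047, 44260 and 44780 with dexamethasone, or 3.47 more on the log2 scale (limma adjusted p = 3.68e-29). Per kilobase, Vcan stood at 0.0425, 0.0414 and 0.0407 of the summed aggrecanase group in the controls and 0.697, 0.717 and 0.729 with dexamethasone, a 17.2-fold change (exact permutation p = 0.1). Aggrecan itself was barely measurable, with 2, 4 and 0 reads of Acan in the controls and 1, 6 and 1 reads with dexamethasone. Ncan and Bcan, proteoglycan genes of brain, had 4 to 17 and 1 to 10 reads per library and were not tested. Comp, the cartilage glycoprotein cut by ADAMTS12, fell from 118 ± 9.44 to 49.7 ± 3.36 normalized counts (SD, n = 3), or -1.23 on the log2 scale (limma adjusted p = 3.17e-07). Of the 5 genes on this list 2 were thus tested, with 1 called higher and 1 lower and a median log2 fold change of 1.12.

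**Figure D4:**
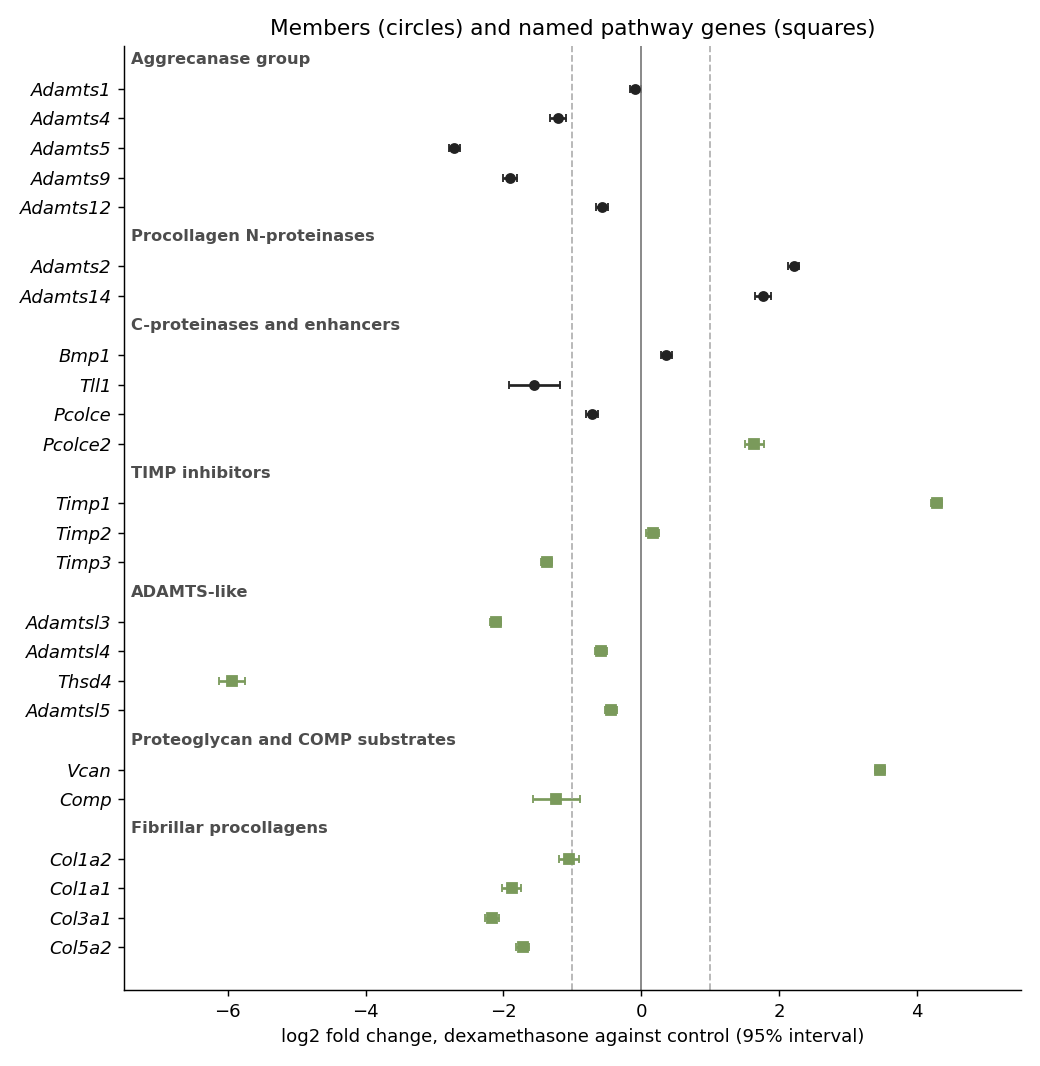
Log2 fold change of dexamethasone against control with its 95% interval from limma, for the 10 members (circles) and named genes of the same pathway (squares), with dashed lines at the cut-off of 1 in either direction. Adamts2, Adamts14, Pcolce2, Timp1 and Vcan lie beyond 1 to the right, and Adamts4, Adamts5, Adamts9, Tll1, Timp3, Adamtsl3, Thsd4, Comp and the 4 procollagens lie beyond -1 to the left.

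The TIMP inhibitors also parted. Timp1, a general inhibitor of matrix metalloproteinases, rose from 7585 ± 113 to 147960 ± 8819 normalized counts (SD, n = 3), 19.5-fold (limma adjusted p = 1.97e-29). Timp3, which inhibits the aggrecanases, had 55178, 54450 and 57403 normalized counts in the controls and 22576, 20362 and 21515 with dexamethasone, a fall of 2.59-fold (limma adjusted p = 4.91e-20). Relative to the summed aggrecanase group, per kilobase, Timp3 went from 1.01 ± 0.0311 to 0.605 ± 0.0185 (SD, n = 3, exact permutation p = 0.1). That sum was mostly Adamts1, on average 54.7% in the controls and 80.2% with dexamethasone, so the ratio says little about Adamts4 and Adamts5. The fall of Timp3 was smaller than that of Adamts5, at 6.57-fold, and larger than that of Adamts4, at 2.31-fold. Timp2 rose by 0.17 on the log2 scale (limma adjusted p = 0.0022). Timp4 had 17 to 18 reads in each control library and 4 to 5 in each dexamethasone library. Of the 4 genes 1 was called higher and 2 lower. Their median log2 fold change of -0.60 has no firm direction, since it was 0.17 without Timp4, which fails stricter filters.

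Of 11 listed genes that activate, assist or clear the proteinases 8 were tested, with 2 called higher, 0 lower and a median log2 fold change of 0.29. The called genes were Pcolce2 and Sdc4, a cell surface proteoglycan linked to ADAMTS5 activation, which rose from 7156 ± 164 to 34653 ± 1030 normalized counts (SD, n = 3), or 4.84-fold (limma adjusted p = 1.59e-25). Lrp1, the endocytic receptor that clears ADAMTS4 and ADAMTS5, rose by 0.45 on the log2 scale (limma adjusted p = 9.32e-09), under the cut-off. Postn, a matricellular protein that binds BMP1, rose by 0.25 (limma adjusted p = 1.41e-05). Fn1, the fibronectin gene, had a log2 fold change of -0.15 with overlapping groups (limma adjusted p = 0.0744). Furin, a convertase that removes the ADAMTS prodomain, rose by 0.34 (limma adjusted p = 1.69e-07). Of the other tested convertases on the list, Pcsk7 rose by 0.22 (limma adjusted p = 0.00015). Pcsk6 fell by 0.75 on the log2 scale (limma adjusted p = 5.72e-10), under the cut-off.

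Among the other ADAMTS proteinases 7 of 12 listed genes were analysed and 3 were tested, of which 0 were called. The adjusted p was under 0.05 for all 3, namely Adamts10 and Adamts7, which had log2 fold changes of 0.35 and 0.26, and Adamts6, which had one of -0.97. Adamts6 would be called by edgeR on the recovered reads, at -1.01, at the same total, at -1.08, and without control replicate 2, at -1.05. The remaining 4 had at most 15 reads in any library. Of them Adamts17 had 10, 15 and 8 reads in the controls and 3, 1 and 4 with dexamethasone. The ADAMTS-like proteins share the domains of the family but have no proteinase domain, and all 5 tested genes were lower with an adjusted p under 0.05, where 35.2% of all genes were. Of these 2 were called, and the median log2 fold change was -0.61. Thsd4, also known as Adamtsl6, which binds fibrillin-1, went from 8350, 9435 and 9275 normalized counts in the controls to 183, 141 and 120 with dexamethasone, or -5.94 on the log2 scale (limma adjusted p = 1.31e-25). Adamtsl3 fell by 2.11, Adamtsl4 by 0.59 and Adamtsl5 by 0.44 on the log2 scale.

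Other substrates of BMP1 and the tolloids showed no common direction. Of 14 listed genes 12 were tested, with 4 called higher, 2 lower and a median log2 fold change of 0.42. Lox, the collagen crosslinking enzyme that BMP1 activates, rose by 0.74 on the log2 scale (limma adjusted p = 3.4e-14) and Ltbp1, which anchors latent TGF-beta, by 0.84 (limma adjusted p = 5.04e-15), both under the cut-off. Bgn, the biglycan gene, and Hspg2, the perlecan gene, had log2 fold changes of -0.05 and -0.11 with overlapping groups. Among the genes called higher were Dmp1, an osteocyte matrix protein with a log2 fold change of 7.16, Col7a1 with 3.32, and Lama3, which had 2, 3 and 3 reads in the controls and 22, 25 and 17 with dexamethasone. Those called lower were Ogn at -5.70 and Chrd, which encodes the BMP antagonist chordin, at -1.68.

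Several features of the libraries moved with the treatment. The osteoblast and osteocyte markers included 8 of 11 genes that were called lower, beside 10.6% of all genes. Spp1 and Dmp1 were the 2 called higher, beside 11.7% of all genes. The summed level of the list was 2009100 to 2137793 normalized counts in the controls and 2010803 to 2142748 with dexamethasone. In that sum a higher Spp1 (33595 to 1279674 on average) stood against lower Col1a1 and Col1a2, and the median log2 fold change of the list was -1.75. Of the genes for Osteocalcin, the protein of the sort, Bglap had 104 to 139 reads per control library and 10 to 13 per dexamethasone library. Bglap2 had 340 to 369 and 28 to 31. The summed chondrocyte markers went from between 7195 and 7636 to between 22775 and 25599, carried by Sox9 and Col2a1, while Comp and Hapln1 were called lower, the list median was -0.67 on the log2 scale, and Acan and Col9a1 were near 0 in all libraries. Hematopoietic markers went from between 97.5 and 131 to between 781 and 828, carried by Cd53 and Itgb2, while Laptm5 and Coro1a were called lower and Ptprc had 2 to 5 reads. For macrophages and osteoclasts the sum went from between 13107 and 13714 to between 8718 and 9301, nearly all of it Ctsk, while Cd68 was called higher, Mmp9 was called lower and Acp5 had 0 reads in each control library and 7 to 26 with dexamethasone. For smooth muscle and pericytes it went from between 170106 and 179454 to between 42294 and 46205, through Acta2, the only one of 6 tested genes called. Endothelial sums were 2229 to 2380 and 3402 to 3989, mostly from Vwf (1825 to 3097 on average). Of 6 tested endothelial genes 5 were higher with a limma adjusted p under 0.05, beside 37.2% of all genes, and 1 of them, Esam, was called higher. Cdh5 was at 0 to 2 reads and Tie1 at 0 to 3. Fibroblast and tendon markers went from between 5926 and 6499 to between 9733 and 10150, carried by Cd34, while Scx was called lower. For adipocytes the sum was 7.83 to 11.9 and then 1412 to 1526, nearly all from Fabp4, with Lep at 0 to 1 read. Skeletal muscle markers were at 63.3 to 79.3 and 55.6 to 73.5. Their part in the changes of the members was not tested. In such bulk samples fewer cells of a type and less RNA per cell cannot be told apart.

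The signs and calls of the members were stable to how the table was handled, while the size of the smaller changes, those of Adamts1 and Bmp1, varied with the scaling. In each of 17 other settings that gave a value the sign was unchanged for all 10 members, and the 6 calls stood in each except that Tll1 gave no value at a mean of at least 100. The log2 fold change of Adamts5 ranged from -2.90 to -2.69 and that of Adamts2 from 2.02 to 2.24. For Adamts14 the range was 1.64 to 1.82, for Adamts9 it was -2.02 to -1.86 and for Adamts4 it was -1.35 to -1.16. Bmp1 ranged from 0.18 to 0.39 and Pcolce from -0.83 to -0.69.

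**Figure D5:**
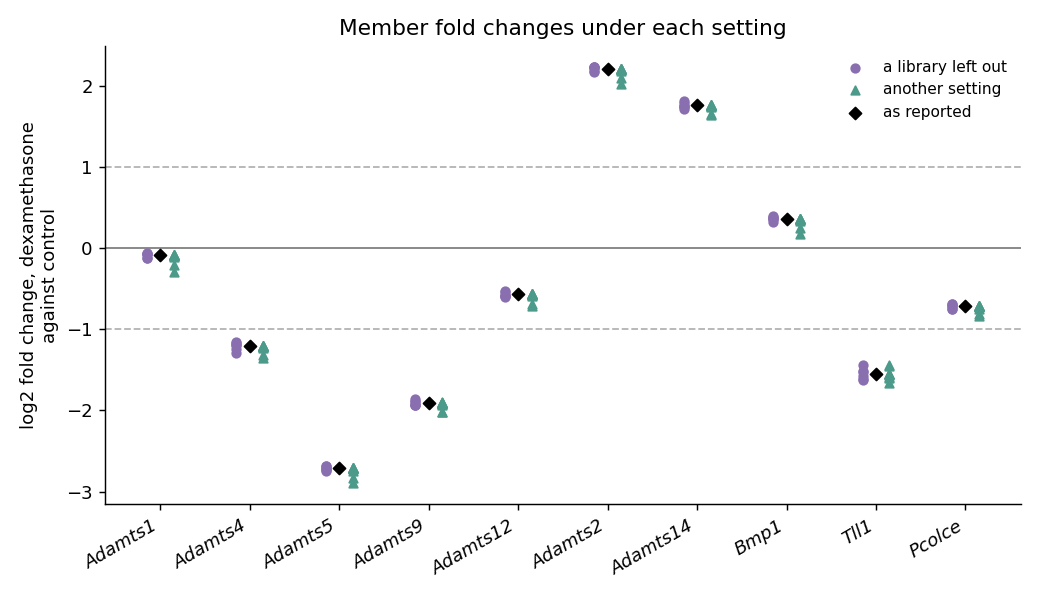
Log2 fold change of each member as reported (diamonds), with each of the 6 libraries left out in turn (circles) and under 11 other settings (triangles), with dashed lines at the cut-off of 1 in either direction. The values of each member stay on one side of 0, and Adamts1 stays between -0.29 and -0.07.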

How the data were processed

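RNA was sequenced in 3 control and 3 dexamethasone libraries with a stranded mRNA kit. The authors aligned and counted the reads per gene with STAR 2.7.10a and normalized them with DESeq2 1.36.0, and the submitters' processing notes name GRCm39. The deposited signal of a gene is thus its number of reads over a size factor of the library. All values (100%) were whole reads within 0.01 of a read, which gave 72596611 to 89910728 reads per library, and 0 columns were left out. Genes averaging at least 10 normalized counts were compared as log2(value + 1) with limma 3.58.1 (trend, R 4.3.3), with Benjamini-Hochberg adjustment over all of them. Fold changes refer to that scale. A count of 0 allows up to 3 reads, which covers counting error only. Symbols (28087 genes), exon lengths and overlaps came from GENCODE M21, which is on GRCm38, so no coordinates of the files are given. At least 99.1% of the 75-base stretches of each member's transcripts occur in no other gene. The edgeR 4.0.16 test on the recovered reads called 3944 genes, against 3894. On simulated counts of 17447 genes with 196 changed, limma recovered 99.5% and made 0 false calls. All planted changes were above the fold cut-off, few genes changed, and every gene had the same spread beyond counting error. The simulation thus checks the code and does not give the error rate in these data.

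The members and lists were chosen with earlier results of these data known. All members are named, with the 4 most abundant genes of each further list and Timp3, Vcan and Pcolce2. Acan, Adamts3, Bglap, Furin and further list genes outside that rule, and the ratios within libraries, were picked with their values in view. Alternatives were other pseudocounts, filters, scalings, limma without trend, edgeR, DESeq2 1.42.0, the replicate number as a block, and each library left out. No libraries of a group were alike to within counting error (chi-square over its degrees of freedom, 3.27 to 26.1). Of the listed genes Adamts15, Adamts16, Adamts18, Adamts19, Adamts20, Fbln1, Mstn, Sost, Emcn, Cldn5, Adgre1, C1qa, Tnmd and Thbs4 were not analysed here. A further list gene is not reported here.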

Additional observations from a re-analysis of the deposited data

How the results depend on the processing

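The count of differentially expressed genes, 3894, was 12645 by the adjusted p alone and 2170 at a mean of at least 100. By that p alone 7 members counted as lower, against 4. Adamts1 missed a limma adjusted p of 0.05 in 7 of 17 settings, with limma adjusted p = 0.0715 without a filter, 0.178 without the trend, and 0.124, 0.147, 0.173 and 0.231 without dexamethasone replicate 2, control replicate 2, dexamethasone replicate 3 and control replicate 3, and the cause was not tested. Rescaling to the same total moved the median of all genes to -0.11, and changes there are relative to it. Of 43 pathway genes 4 changed call, Adamts6 and Col5a1 gaining it and Col1a2 and Col5a3 losing it after quantile normalization. Loxl1 (0.10) went to -0.0115 at the same total and -0.0538 after quantile normalization. The median of the other ADAMTS genes (0.26) was -0.49 without a filter, and that of the TIMP genes (-0.60) was 0.17 at a mean of at least 100 and with at least 10 in every library, and lay between -0.614 and 0.187 with 1 library fewer, above 0 without any of the controls, as Timp4 then fails the filter. What same-numbered libraries share beyond the number is not stated. Their deviations from the group means correlated at -0.0999, -0.105 and -0.0199, which with 3 libraries per group cannot show whether they were paired. A replicate block gave 3897 called genes, with 2 members higher and 4 lower, and Adamts1 had an adjusted p of 0.113. Depth limits the statements on Tll1 and on genes under 20 reads per library.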
